A study of Mus musculus with 18 samples.

Results

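Kidney RNA of old control mice was set against brain and gastrocnemius RNA of old control mice, to find the transcripts that the aged kidney holds in excess and those that it lacks. The comparison used the 3 control kidney libraries out of 18 libraries in the series, beside 3 control brain and 3 control gastrocnemius libraries. All 9 came from polyadenylated RNA of male wild-type C57BL/6 mice kept on a normal diet and gavaged with saline from 18 months of age, with tissues collected at 23 months. The libraries of mice given the selenium supplement of the study, SeMSNs, were not used, and no young mice enter any comparison here. The labels do not say that each library of a tissue came from a mouse of its own, so the p-values below measure the spread between libraries, which may be partly technical.

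The kidney filters plasma in the glomerulus and recovers most of the filtrate in the proximal tubule, whose cells carry sodium-coupled transporters and endocytic receptors on a brush border and make glucose from lactate and amino acids. The thick ascending limb then takes up salt without water, the distal convoluted and connecting tubules set calcium, magnesium and salt loss, and the collecting duct adjusts water in its principal cells and acid in its intercalated cells. The organ also releases renin, activates vitamin D, and secretes glutathione peroxidase 3 into plasma. Brain and skeletal muscle share electrical excitability, which kidney epithelium does not use, so the pair of reference tissues brings out both sides.

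Total counts ranged from 18839904 to 22146406 in kidney, 17504652 to 18002018 in brain and 19307192 to 20758114 in gastrocnemius. Mitochondrially encoded transcripts made up 25.8% to 28.9% of kidney counts, 11.9% to 13.1% of brain counts and 21.9% to 25.8% of gastrocnemius counts. The labels held against defining markers: the 14 neuronal genes summed to 2.6 to 8.04 FPKM in kidney and 1632 to 1820.4 FPKM in brain, and the 15 sarcomere genes to 1.68 to 2.13 FPKM in kidney and 40559.7 to 47095 FPKM in gastrocnemius. FPKM, the authors' value scaled by transcript length and library total, is the scale on which levels of different genes are compared here. Fold changes come from counts scaled further by TMM factors, which were 0.964 to 1.07 in kidney, 1.41 to 1.47 in brain and 0.61 to 0.723 in gastrocnemius, so that a ratio of FPKM values exceeds or falls short of the fitted fold by those factors. Brain library 2 stood apart, with 10.2, 502 and 7.74 FPKM of sarcomere transcripts in brain libraries 1, 2 and 3. Gastrocnemius library 3 held a trace of kidney transcripts, with 0.0935, 0.176 and 15.2 FPKM of the kidney androgen-regulated gene Kap in the gastrocnemius libraries. Counts of kidney-missing genes that moved without brain library 2 are given with and without it.

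Of 17252 genes tested, 5602 were higher in kidney than in the mean of brain and gastrocnemius (32.5%) and 5362 were lower (31.1%), at an adjusted p under 0.05 in edgeR's quasi-likelihood test. Against brain alone 5876 genes were higher (34.1%) and 6361 lower (36.9%), and against gastrocnemius alone 5684 were higher (32.9%) and 4873 lower (28.2%). A stricter class, called kidney-enriched here, holds the genes at least 8-fold above each of the other tissues: it had 1150 genes (6.67%). The opposite class, at least 8-fold below each, is called kidney-missing and had 550 genes (3.19%). The enriched genes took 26.9%, 26.8% and 27.8% of the nuclear counts in kidney libraries 1, 2 and 3, against 0.501% to 0.535% in brain and 0.248% to 0.306% in gastrocnemius. The missing genes took 0.0754% to 0.0827% in kidney, 4.16% to 4.7% in brain and 29.8% to 33% in gastrocnemius. These shares include abundant muscle fibre genes, such as Ckm, Acta1 and Tnnt3, that were kidney-missing only with brain library 2. The shares were not computed without that library, so the gastrocnemius share does not measure genes that muscle has in common with brain. In whole tissue, more cells of a type and more RNA per cell cannot be told apart.

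**Figure D1:**
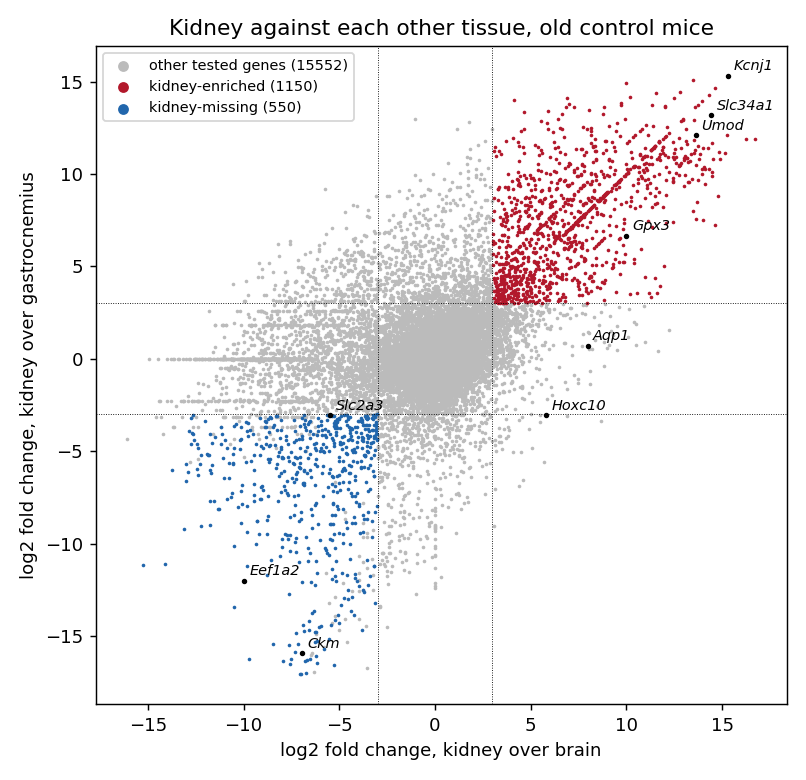
Log2 fold change of each of the 17252 genes tested, kidney over brain on the horizontal axis and kidney over gastrocnemius on the vertical axis, from the fit of the counts of 9 libraries. The 1150 kidney-enriched genes (red) fill the upper right corner with Kcnj1 and Slc34a1, the 550 kidney-missing genes (blue) the lower left with Eef1a2 and Slc2a3, and dotted lines mark a log2 fold change of 3 in either direction. Lines of points at far ends are genes with no count in one tissue, whose fitted fold depends on a prior.

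The most abundant nuclear transcript of the old kidney was Gpx3, which encodes the selenoprotein peroxidase that proximal tubule secretes into plasma. It stood at 10831, 10996 and 9314 FPKM in kidney, 17.2, 6.55 and 19.3 in brain, and 96.3, 74.5 and 28.2 in gastrocnemius. All 3 kidney libraries were far above the 6 others, and the log2 fold change was 10.00 ± 0.79 (SE) against brain (adjusted p = 2.0e-06) and 6.66 ± 0.69 against gastrocnemius (adjusted p = 1.9e-05). Kap came next, at 6257, 5452 and 10464 FPKM in kidney, 0.351, 0.619 and 1.02 in brain, and 0.0935, 0.176 and 15.2 in gastrocnemius. Kidney library 3 was the highest for Kap, and the groups did not overlap. Fth1, the ferritin heavy chain that stores iron, was abundant everywhere, with 4035 ± 309 FPKM in kidney, 2121 ± 487 in brain and 1593 ± 176 in gastrocnemius (mean ± SD, n = 3 each, here and below). The 10 highest also included a pseudogene of Tpt1 and 5 pseudogenes on chromosome 1 within chr1:24612407-24616197, annotated as unprocessed. Those 5 took 1.34% to 1.54% of kidney counts, 0.493% to 0.535% of brain counts and 0.948% to 1.18% of gastrocnemius counts, the same order of tissues as for mitochondrially encoded transcripts. Whether their reads came from mitochondrial transcripts was not tested.

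Over all genes tested, 6.67% were kidney-enriched. Of 327 tested genes with a mean of at least 100 FPKM in kidney, 117 were kidney-enriched, as were 526 of 3100 with at least 10 FPKM. Both sets were chosen by their kidney level, which also enters the class, so a larger share follows in part from that choice. Names beginning with Slc, the solute carriers, gave 87 enriched genes among 335 tested (26%). The Slc22 organic ion carriers gave 15 of 21, the Ugt glucuronosyltransferases 15 of 16, the cytochrome P450 genes (Cyp) 23 of 51 and the claudins (Cldn) 7 of 15. Zinc finger genes named Zfp gave 3 of 369. Neighbouring genes often shared the class: 37.1% of enriched genes had an enriched neighbour on their chromosome, against 12.1% of all genes tested. Runs of enriched genes lay at the Ugt2b and Sult1 genes of chromosome 5, the Klk1b kallikreins and the stretch from Gp2 and Umod to the Acsm genes on chromosome 7, the Slc22a genes of chromosome 19, and the Nat8 genes of chromosome 6. Reads of near-identical copies in such families may have been split or shared in counting, so values for single members are uncertain.

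The leading enriched genes, taken by the smaller of the fitted fold changes against brain and gastrocnemius, have no exact order, because the fitted fold of a gene with no count elsewhere depends on a prior. Kcnj1 was among them. It encodes the apical potassium channel ROMK of the thick ascending limb and collecting duct, lies at chr9:32372418-32399192 in GRCm38, and stood at 76.8, 97.1 and 62.3 FPKM in kidney with no count in any brain or gastrocnemius library. A count of 0 allows up to 3 counts in a library, so the gene was at least 2139-fold higher than in brain and at least 1136-fold higher than in gastrocnemius. Habp2, Ugt3a1, Mettl7a2 and Slc13a2 were likewise at 0 in all 6 other libraries. Slc13a2, a citrate and dicarboxylate carrier of the proximal tubule, stood at 28.4, 37.5 and 31.4 FPKM in kidney. Habp2, a serine protease that binds hyaluronan, stood at 26.7, 24.2 and 27.96 FPKM. In all, 130 kidney-enriched genes had no count in any brain or gastrocnemius library. The other leading genes were Acnat2, Slc34a1, Slc7a13, the organic solute transporter Slc51a, Slc7a9, Them7, Klk1, Slc12a1 and the pair Ugt1a2 and Ugt1a5. That pair shares most of its exons, and the counts moved between the names: Ugt1a2 had 101, 114 and 9.29 FPKM and Ugt1a5 9.29, 111 and 113 FPKM in kidney libraries 1, 2 and 3.

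The gene lists followed from here on were chosen with earlier results of these data known, so their tallies are descriptions. Over all genes tested, 32.5% were higher, 31.1% lower and 6.67% kidney-enriched. Genes of the glomerulus were present at low levels. Of 10 podocyte genes tested, 6 were higher in kidney, 3 lower and 1 not called, with a median log2 fold change of 1.37 against −0.0502 over all genes tested. Nphs1, which encodes nephrin of the slit diaphragm, had 4.42, 4.96 and 3.03 FPKM in kidney, 0.327, 0.43 and 0.285 in brain, and 0 in every gastrocnemius library, and so was at least 112-fold higher than in gastrocnemius. Wt1, the podocyte transcription factor, was below 1 FPKM in kidney at 0.407, 0.55 and 0.41 and was kidney-enriched all the same. Podxl, the podocyte sialomucin that endothelium also makes, was higher by 2.73 ± 0.22 against brain and 0.87 ± 0.21 against gastrocnemius on the log2 scale. Among the members that were lower, Synpo, an actin-binding protein of foot processes and of dendritic spines, was below both tissues. It had 0.557, 1.17 and 0.817 FPKM in kidney, 4.6, 4.59 and 4.96 in brain and 4.32, 5.06 and 2.99 in gastrocnemius. Magi2 and Plce1, the others, were below brain but not below gastrocnemius. On the scaled counts, the ratio of kidney to brain was 0.0648 for Magi2 and 0.313 for Plce1. The ratio of kidney to gastrocnemius was 4.79 and 1.2.

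Renin stood out among the vascular genes. Ren1, made by the juxtaglomerular cells, had 12.5, 13.5 and 26.9 FPKM in kidney, 0.0307, 0 and 0.0623 in brain, and 0 in every gastrocnemius library. Kidney library 3 was the highest, the groups did not overlap, and Ren1 was at least 144-fold higher than in gastrocnemius. Of 6 genes of renin and mesangial cells, 5 were higher and Pdgfrb, the pericyte receptor, was lower than the mean of the other tissues, with 3.18 FPKM in kidney, 4.27 in brain and 6.61 in gastrocnemius on average. That call rested on gastrocnemius (log2 fold change −1.62 ± 0.18, adjusted p = 3.2e-05), since on the scaled counts Pdgfrb did not pass the test against brain (0.08 ± 0.18, adjusted p = 0.72). Gata3 and Akr1b7 were enriched.

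Transport genes of the proximal tubule were nearly all kidney-enriched. Of 17 apical transport genes tested, 17 were higher and 15 kidney-enriched, with a median log2 fold change of 11.2, or 10.5 with genes at 0 elsewhere set to their lower bound. Slc34a1, the sodium-phosphate carrier that parathyroid hormone acts on, lies at chr13:55399648-55414695 and had 1310.01, 920.2 and 1311 FPKM in kidney, 0.0541, 0 and 0.164 in brain, and 0, 0.0475 and 0.203 in gastrocnemius. Its log2 fold change was 14.44 ± 1.04 against brain (adjusted p = 9.6e-07) and 13.19 ± 0.99 against gastrocnemius (adjusted p = 2.0e-06). Slc22a12, the urate exchanger, had 217, 171 and 273 FPKM in kidney, 0.136, 0.1 and 0.0985 in brain, and 0.109, 0.239 and 0.118 in gastrocnemius. Slc3a1 and Slc7a9, the heavy and light chains of the cystine carrier, averaged 273 ± 28.6 and 37.1 ± 4.66 FPKM in kidney, with at most 0.146 FPKM in any other library. Slc5a2, the sodium-glucose carrier that gliflozin drugs block, had 48.5, 35.6 and 58.4 FPKM in kidney, 0.0185, 0 and 0 in brain, and 0, 0 and 0.0241 in gastrocnemius. The endocytic receptors megalin, Lrp2, and cubilin, Cubn, averaged 93.2 ± 8.89 and 30.9 ± 1.86 FPKM in kidney and at most 0.115 FPKM in any brain or gastrocnemius library. The members outside the enriched class were Slc15a2, a peptide carrier, and the water channel Aqp1. Aqp1 had 386, 483 and 254 FPKM in kidney, 1.59, 2.13 and 2.55 in brain, and 76.9, 129.9 and 259.9 in gastrocnemius, so that gastrocnemius library 3 lay just above kidney library 3 and the difference from gastrocnemius missed the threshold (log2 fold change 0.70 ± 0.37, adjusted p = 0.13). Red cells and endothelium also express Aqp1. Red cell sums were 44.2, 13.1 and 120.9 FPKM in gastrocnemius libraries 1, 2 and 3, and 95.8, 7.61 and 59.8 FPKM in the kidney libraries. Library 2 had the lowest red cell sum in both tissues but not the lowest Aqp1 in either. The part of red cells or endothelium in this result was not tested.

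**Figure D2:**
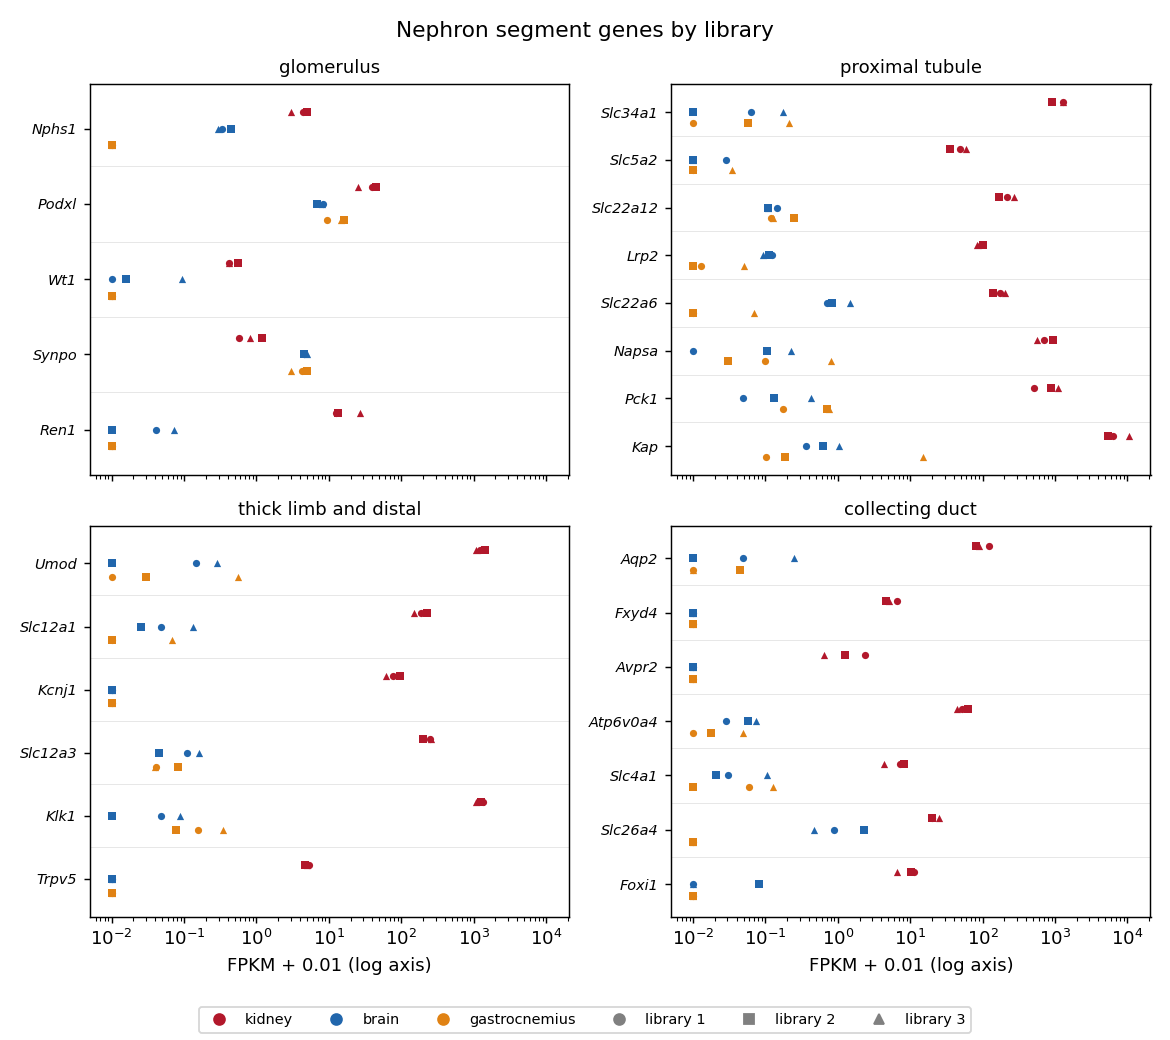
FPKM plus 0.01 (log axis) of 26 nephron genes in each of 9 libraries, by segment, with kidney (red) above brain (blue) and gastrocnemius (orange) in each row; a gene with no count sits at 0.01. Kidney libraries lie to the right of every other library for each gene shown but Synpo.

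On the basolateral side, organic ion transport showed the same picture: 17 of 17 genes tested were higher and 14 enriched, with a median log2 fold change of 9.61. Slc22a6 and Slc22a8, the exchangers OAT1 and OAT3 that bring drugs and metabolites from blood, averaged 174 ± 31.3 and 132 ± 29.9 FPKM in kidney. Slc22a8 was also present in brain, at 4.23, 2.97 and 4.75 FPKM, and the kidney excess was 5.56 ± 0.41 on the log2 scale there and 11.16 ± 0.58 against gastrocnemius. Slc4a4, the bicarbonate exit carrier, was higher but not enriched, with 78.4, 87.5 and 92.7 FPKM in kidney, 18.2, 12.4 and 21.8 in brain and 1.06, 0.97 and 2.33 in gastrocnemius. The amino acid exchanger Slc7a8 and the nucleotide pump Abcc4 were the other members outside the enriched class.

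Brush border enzymes were led by Napsa, an aspartic protease, and Cltrn, or collectrin, a partner of amino acid carriers. Napsa had 705, 929 and 571 FPKM in kidney, 0, 0.0969 and 0.215 in brain, and 0.0879, 0.0207 and 0.797 in gastrocnemius. Cltrn had 463, 347 and 472 FPKM in kidney, 0.281, 0.337 and 0.214 in brain, and 0, 0.0206 and 0.406 in gastrocnemius. Neither gene passed 1 FPKM outside the kidney. All 13 tested genes of the list were higher and 11 were enriched, with a median log2 fold change of 5.63. Mep1a, a metalloprotease meprin subunit, averaged 304 ± 26.1 FPKM in kidney. Ace, the angiotensin-converting enzyme that endothelium also carries, was outside the enriched class, with 13.1, 17.5 and 16.9 FPKM in kidney, 6.05, 8.61 and 7.17 in brain and 4.42, 6.53 and 6.34 in gastrocnemius (log2 fold change against their mean 1.25 ± 0.16, adjusted p = 6.7e-05). Dpep1 was the other.

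Enzymes of glucose production and fructose use were higher in 10 of 10 genes tested and enriched in 8, with a median log2 fold change of 5.85. Pck1, which commits oxaloacetate to gluconeogenesis, had 509, 893 and 1096 FPKM in kidney, 0.0396, 0.122 and 0.411 in brain, and 0.166, 0.704 and 0.756 in gastrocnemius. Kidney library 1 was the lowest and library 3 the highest of the kidney libraries, and each lay far above every other library. G6pc, the last enzyme of glucose release, had 162, 217 and 261 FPKM in kidney, 0, 0.0237 and 0.186 in brain, and 0, 0.0202 and 0.18 in gastrocnemius. Fbp1, fructose bisphosphatase, averaged 332 ± 31.4 FPKM in kidney. Sord, sorbitol dehydrogenase, was well expressed elsewhere too, with 672 FPKM in kidney, 9.7 in brain and 22.5 in gastrocnemius, and was higher by 6.61 ± 0.24 and 4.30 ± 0.21 on the log2 scale. Pcx, pyruvate carboxylase, and the glucose 6-phosphate carrier Slc37a4 were higher without being enriched.

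Amino acid, creatine and inositol metabolism was higher in 20 of 20 genes tested and enriched in 15, with a median log2 fold change of 7.17. Miox, the oxygenase that opens myo-inositol, had 435, 279 and 507 FPKM in kidney, 0, 0.0205 and 0.0606 in brain, and 0, 0 and 0.294 in gastrocnemius. Ass1, argininosuccinate synthase of renal arginine production, averaged 326 ± 48.2 FPKM in kidney, 6.98 ± 1.72 in brain and 0.721 ± 0.199 in gastrocnemius. Hpd, an enzyme of tyrosine breakdown, varied most in this list, at 129, 247 and 43.4 FPKM in kidney libraries 1, 2 and 3, though the lowest was still far above every brain and gastrocnemius library. Gatm, which makes the creatine precursor guanidinoacetate, is shared with brain: it had 178, 85.4 and 141 FPKM in kidney, 51.8, 44.3 and 41.1 in brain and 1.11, 2.04 and 2.07 in gastrocnemius.

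Genes known for androgen response or xenobiotic handling in male mouse tubule were higher and enriched in 18 of 18 tested, with a median log2 fold change of 11.4, or 10.8 with zeros at their bound. Over all genes tested, 32.5% were higher and 6.67% enriched. As with the other lists, this one was chosen with earlier results of these data known. Kap alone gave most of the list's summed FPKM, which was 11081, 10626 and 14782 in kidney libraries 1, 2 and 3. Cyp2e1, which oxidises ethanol and small solvents, averaged 1136 ± 306 FPKM in kidney. Akr1c21, a hydroxysteroid dehydrogenase of mice, had 834, 522 and 747 FPKM in kidney, 0, 0.0664 and 0 in brain, and 0, 0 and 0.615 in gastrocnemius. Cyp4a14, a fatty acid omega-hydroxylase induced by fasting through PPARA, had 310.04, 702 and 222 FPKM in kidney and was highest in library 2. Peroxisomal oxidation, which the same receptor governs, was higher in 14 of 15 genes tested and enriched in 4, at a median log2 fold change of 2.65. Ehhadh, the bifunctional enzyme of that pathway, averaged 241 ± 53.7 FPKM in kidney, 1.69 ± 0.372 in brain and 2.57 ± 0.503 in gastrocnemius. Crat, carnitine acetyltransferase, was the member not called, lying between brain and gastrocnemius with 10.5 FPKM in kidney, 3.03 in brain and 30.7 in gastrocnemius.

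The thick ascending limb was marked by Umod, which encodes uromodulin, the most abundant urinary protein. Umod lies at chr7:119462866-119479255 and had 1213, 1417 and 1091 FPKM in kidney, 0.135, 0 and 0.273 in brain, and 0, 0.0197 and 0.546 in gastrocnemius. The log2 fold change was 13.62 ± 1.28 against brain (adjusted p = 6.7e-06) and 12.10 ± 1.21 against gastrocnemius (adjusted p = 1.5e-05). Slc12a1, the loop diuretic target, had 188, 224 and 152 FPKM in kidney, 0.038, 0.0156 and 0.123 in brain, and 0, 0 and 0.0593 in gastrocnemius. All 12 genes of the list were higher and 10 enriched, with a median log2 fold change of 10.5, or 7.94 with zeros at their bound. Cldn19 and Casr, the calcium-sensing receptor, fell short of 8-fold against gastrocnemius: Casr had 5.62, 6.47 and 3.53 FPKM in kidney, 0.0252, 0.0518 and 0.136 in brain and 0.235, 0.479 and 1.36 in gastrocnemius. Kidney library 3 was the lowest of the kidney libraries for this segment, with list sums of 1791, 2068 and 1546 FPKM in libraries 1, 2 and 3.

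In the distal convoluted and connecting tubule, 10 of 12 genes tested were higher, 1 lower and 1 not called, and 6 were enriched. Slc12a3, the thiazide-sensitive salt carrier, had 246, 202 and 258 FPKM in kidney, 0.101, 0.0346 and 0.153 in brain, and 0.0313, 0.0737 and 0.0291 in gastrocnemius. Its kidney libraries lay within a narrow band, and its log2 fold change was 11.72 ± 0.42 against brain and 11.74 ± 0.43 against gastrocnemius (adjusted p = 2.7e-08 and 5.6e-08). Klk1, tissue kallikrein of the connecting tubule, reached 1370.2, 1279 and 1078 FPKM in kidney. The apical calcium channel Trpv5 had 5.28, 4.74 and 5.06 FPKM in kidney and no count elsewhere, which made it at least 154-fold higher than in brain and at least 81.8-fold higher than in gastrocnemius. S100g, the small vitamin D-dependent calbindin, averaged 392 ± 69.4 FPKM in kidney. Its larger relative Calb1 was shared with brain, at 63.7, 50.8 and 55.02 FPKM in kidney, 24.6, 23.4 and 27.5 in brain and 0.00955, 0.027 and 0.0355 in gastrocnemius. Parvalbumin, Pvalb, marks the early distal convoluted tubule of mice but is far more abundant in fast muscle fibres and interneurons. It had 5.93, 3.13 and 4.12 FPKM in kidney, 43.1, 61.2 and 11.6 in brain, and 1075, 987 and 2014 in gastrocnemius, and its log2 fold change was −2.64 ± 0.57 against brain and −8.84 ± 0.75 against gastrocnemius. Slc8a1, the sodium-calcium exchanger, was not called (log2 fold change against the mean 0.09 ± 0.23, adjusted p = 0.76).

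Most collecting duct genes were highly restricted. Their lists summed to less than the proximal apical transport list, which had 2400 to 2783 FPKM in kidney. The sums were 197 to 263 FPKM for principal cell genes and 216 to 241 FPKM for intercalated cell genes. Aqp2, the vasopressin-regulated water channel of principal cells, had 125, 80.4 and 88.4 FPKM in kidney, 0.0392, 0 and 0.238 in brain, and 0, 0.0344 and 0 in gastrocnemius. Of 10 principal cell genes tested, 9 were higher and the same 9 enriched, with a median log2 fold change of 10.2, or 7.81 with zeros at their bound. Fxyd4 and the vasopressin receptor Avpr2 had no count in brain or gastrocnemius, and 6.55, 4.61 and 5.07 and 2.34, 1.27 and 0.636 FPKM in kidney libraries 1, 2 and 3. Aqp4, the basolateral water channel that astrocytes also hold, was the exception: it had 13.4, 6.89 and 6.59 FPKM in kidney, 21.3, 22.9 and 25.8 in brain and 0.408, 0.163 and 3.5 in gastrocnemius, and was not called. For intercalated cells 12 of 12 genes were higher and enriched, with a median log2 fold change of 10.1, or 7.8 with zeros at their bound. Their proton pump subunit Atp6v0a4 had 52.3, 62.2 and 44.2 FPKM in kidney, 0.0183, 0.047 and 0.0648 in brain, and 0, 0.00802 and 0.0397 in gastrocnemius. Slc26a4, or pendrin, of the bicarbonate-secreting type had 19.9, 20.03 and 24.8 FPKM in kidney, against 0.885, 2.29 and 0.457 in brain and 0 in every gastrocnemius library. Slc4a1, the anion exchanger of the acid-secreting type and of red cells, had 7.13, 8.17 and 4.29 FPKM in kidney. Foxi1, the transcription factor of intercalated cells, had 11.4, 10.3 and 6.58 FPKM in kidney and was at least 98.2-fold higher than in gastrocnemius. Medullary and osmolyte genes were more mixed, with 5 of 8 higher, 3 not called and 2 enriched: the inositol carrier Slc5a3 and the urea carrier gene Slc14a2.

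Genes of the endocrine kidney and of mineral balance were higher in 9 of 9 tested and enriched in 7. Kl, which encodes the FGF23 co-receptor klotho, had 56.4, 41.4 and 49.4 FPKM in kidney, 2.99, 4.26 and 2.59 in brain, and 0, 0.00467 and 0.0277 in gastrocnemius. The difference was 4.40 ± 0.36 on the log2 scale against brain (adjusted p = 2.6e-06) and 11.50 ± 0.56 against gastrocnemius (adjusted p = 1.4e-07). Cyp27b1, which activates vitamin D, had 5.76, 6.01 and 9.22 FPKM in kidney, 0.186, 0.132 and 0.217 in brain, and 0.0532, 0.0626 and 0.111 in gastrocnemius. Cyp24a1, which degrades it, was several times higher in each kidney library, at 30.1, 18.1 and 47.5 FPKM, and the vitamin D receptor Vdr had 34.3, 34.7 and 72.6 FPKM. For both Cyp24a1 and Vdr library 3 was the highest. Pth1r, the parathyroid hormone receptor, averaged 63.4 ± 7.32 FPKM in kidney. Agt, the angiotensin precursor, did not differ from brain beyond the spread of libraries, with 36.8, 57.3 and 31.9 FPKM in kidney, 71.2, 40.8 and 54.3 in brain and 5.34, 6.67 and 7.29 in gastrocnemius (adjusted p = 0.74 against brain). Epo, the erythropoietin gene, had no count in any kidney library, which allows up to 0.143 CPM (counts scaled to a common library size) in each, and was not tested.

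Transcription factors of nephron identity were higher in 21 of 21 tested and enriched in 15, with a median log2 fold change of 7.65, or 5.98 with zeros at their bound. Hnf4a, the nuclear receptor that drives proximal tubule maturation, was the highest, at 98.99, 99.99 and 92.9 FPKM in kidney, 0.0202, 0.00692 and 0.0136 in brain, and 0.0251, 0.0295 and 0.0467 in gastrocnemius. The groups were separated by a log2 fold change of 13.19 ± 0.30 against brain (adjusted p = 2.4e-08) and 10.88 ± 0.27 against gastrocnemius (adjusted p = 2.1e-08). Nr1h4, the bile acid receptor FXR, and Tfcp2l1, a collecting duct regulator, averaged 50.7 ± 12.1 and 41.4 ± 10.6 FPKM in kidney. Pax8 had 10.4, 11.8 and 9.79 FPKM in kidney, 0.0293, 0.0678 and 0 in brain, and 0 in every gastrocnemius library, and Pax2, its partner in kidney development, averaged 2.54 ± 0.442 FPKM in kidney. The members outside the enriched class were Emx1, Tfcp2l1, Irx3, Osr2, Esrrb and Esrrg. Esrrg, the oestrogen-related receptor gamma, differed least, with 3.99 FPKM in kidney, 3.44 in brain and 1.9 in gastrocnemius (log2 fold change against the mean 0.61 ± 0.13, adjusted p = 0.0025).

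The 250 bases before the start of transcription were searched for the letters CAAAGTCCA, a motif of HNF4. The search covered both strands with no mismatch. Motifs of HNF1 and of the oestrogen-related receptors were also planned and are not reported here. The windows came from RefSeq on GRCm38.p6. The letters were in 126 of 32851 windows (0.384%). Only 789 of the 1150 enriched genes had a window (68.6%), so no share is given for them. The windows below belong to 5 kidney-enriched genes with a match. They were taken by kidney FPKM from a set that left out predicted genes and some others. A gene with a match and a higher kidney level may therefore be absent. The windows are printed 5′ to 3′ on the strand of the gene with the match in capitals. The capitals in Aadat and Treh read the motif on the opposite strand.
Slc3a1: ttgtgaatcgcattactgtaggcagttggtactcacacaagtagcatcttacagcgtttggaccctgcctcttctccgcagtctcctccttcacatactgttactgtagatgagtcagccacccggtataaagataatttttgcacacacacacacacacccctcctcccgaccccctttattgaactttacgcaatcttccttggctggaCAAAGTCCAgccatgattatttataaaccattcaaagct
Aadat: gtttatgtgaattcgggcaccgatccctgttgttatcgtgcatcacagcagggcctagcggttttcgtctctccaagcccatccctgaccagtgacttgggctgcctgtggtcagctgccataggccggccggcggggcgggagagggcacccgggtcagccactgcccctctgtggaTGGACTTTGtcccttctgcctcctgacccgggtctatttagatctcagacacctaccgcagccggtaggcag
Agxt2: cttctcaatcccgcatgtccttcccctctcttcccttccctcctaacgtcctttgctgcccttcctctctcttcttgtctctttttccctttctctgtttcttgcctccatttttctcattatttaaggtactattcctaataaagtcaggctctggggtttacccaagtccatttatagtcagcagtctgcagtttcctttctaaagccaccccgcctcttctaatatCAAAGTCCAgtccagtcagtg
Treh: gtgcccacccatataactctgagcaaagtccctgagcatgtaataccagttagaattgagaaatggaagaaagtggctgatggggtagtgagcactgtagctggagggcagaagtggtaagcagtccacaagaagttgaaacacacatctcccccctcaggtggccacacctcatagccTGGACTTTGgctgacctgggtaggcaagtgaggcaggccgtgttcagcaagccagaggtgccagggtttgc
Pafah2: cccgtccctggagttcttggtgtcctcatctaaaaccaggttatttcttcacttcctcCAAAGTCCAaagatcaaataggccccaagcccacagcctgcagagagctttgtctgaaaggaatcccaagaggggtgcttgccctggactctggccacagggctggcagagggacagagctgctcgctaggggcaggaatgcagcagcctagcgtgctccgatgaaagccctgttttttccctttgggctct

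In the Slc3a1 window (chr17:85028097-85028346, plus strand) the letters began 39 bases before the start. Slc3a1, described above, stayed under 1 FPKM in every brain and gastrocnemius library. Aadat (chr8:60505874-60506123, plus strand), an aminotransferase of tryptophan and lysine breakdown, averaged 138 ± 13.6 FPKM in kidney, 0.116 ± 0.0364 in brain and 0.0812 ± 0.141 in gastrocnemius, and its match began 72 bases before the start. Agxt2 (chr15:10358283-10358532, plus strand), a mitochondrial aminotransferase, averaged 28.04 ± 2.67 FPKM in kidney, 0.0141 ± 0.0244 in brain and 0.0241 ± 0.0418 in gastrocnemius, with the letters 21 bases before the start. Treh (chr9:44672983-44673232, plus strand), the brush border enzyme that splits trehalose, averaged 18.8 ± 4.22 FPKM in kidney, 0.019 ± 0.0191 in brain and 0.00536 ± 0.00929 in gastrocnemius, with the match 71 bases before the start. Pafah2 (chr4:134397221-134397470, plus strand), a phospholipase that hydrolyses platelet-activating factor, was less restricted, at 16.4 ± 5.66 FPKM in kidney, 1.05 ± 0.367 in brain and 1.19 ± 0.576 in gastrocnemius, and its match lay 192 bases before the start. All 5 genes were far higher in kidney, which is how they were chosen. A match is a description of the letters and not a binding site.

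Hox genes, which keep the positional code of the embryo, differed between kidney and the other tissues cluster by cluster. Of 39 Hox genes, 31 passed the filter on low counts, 29 were higher in kidney than in the mean of the other tissues and 7 were kidney-enriched. All 7 belonged to the Hoxb cluster on chromosome 11, of which 8 members were tested. Hoxb7, a gene of the ureteric bud lineage, had 11.5, 12.6 and 9.08 FPKM in kidney, 0 in every brain library, and 0.281, 0.381 and 0.377 in gastrocnemius. Hoxb9 had 8.28, 10.1 and 8.38 FPKM in kidney, 0 in every brain library, and 0.235, 0.17 and 0.134 in gastrocnemius. Summed FPKM over the Hoxb cluster ran from 38.1 to 47.9 in kidney, 0 to 0.0118 in brain and 1.45 to 1.76 in gastrocnemius. The Hoxc cluster ran the other way between kidney and muscle, with sums of 12.5 to 15.9 FPKM in kidney, 0 to 0.695 in brain and 45.7 to 58.1 in gastrocnemius. Most of that was Hoxc10, at 6.87, 7.88 and 8.01 FPKM in kidney, 0, 0.569 and 0 in brain, and 48.3, 37.99 and 36.7 in gastrocnemius, which was lower than in gastrocnemius (log2 fold change −3.04 ± 0.56, adjusted p = 9.4e-04) and higher than in brain. The Hoxa and Hoxd clusters were mixed between kidney and muscle. Of 11 Hoxa genes tested, 5 were higher than in gastrocnemius, 3 were lower and 3 were not called, and of 5 Hoxd genes 3 were higher and 2 not called. Hoxa11 had 0.237, 0.206 and 0.0605 FPKM in kidney, 0 in every brain library, and 1.098, 0.978 and 0.758 in gastrocnemius (log2 fold change against gastrocnemius −3.09 ± 0.48, adjusted p = 7.4e-04). Hoxd9 had 9.92, 9.89 and 8.45 FPKM in kidney and 4.78, 3.63 and 5.77 in gastrocnemius and did not pass the test between them (adjusted p = 0.14). The most posterior genes were absent from kidney counts: Hoxa13, Hoxb13, Hoxc12, Hoxc13, Hoxd12 and Hoxd13 had none in any kidney library, as had Hoxb1 at the anterior end. Hoxa13 had 1.61, 1.17 and 0.642 FPKM in gastrocnemius. In brain, 26 of the 39 genes had no count.

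**Figure D3:**
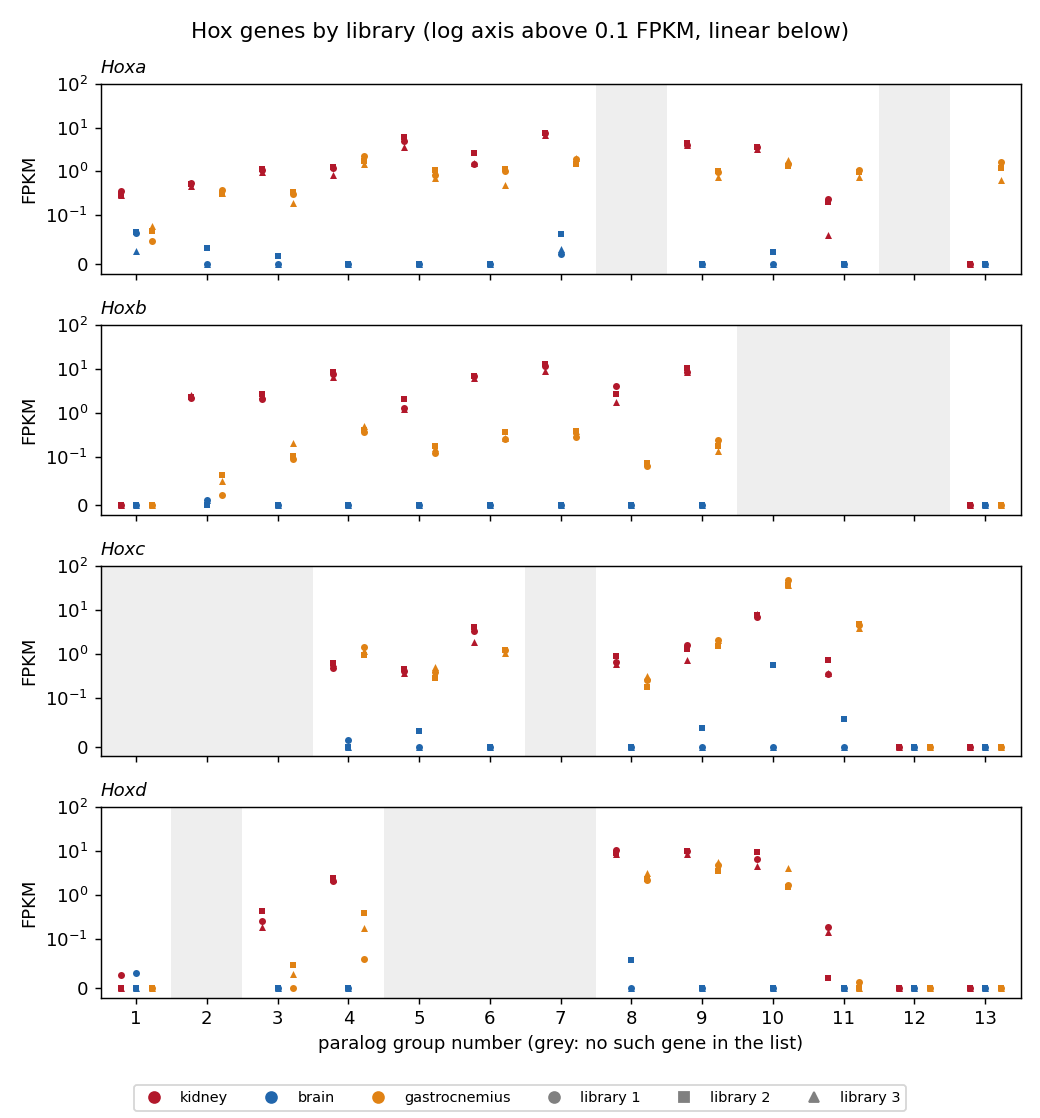
FPKM of 39 Hox genes by paralog group number in each library, 1 panel per cluster, with kidney (red), brain (blue) and gastrocnemius (orange) side by side; the axis is logarithmic above 0.1 FPKM and linear below. The Hoxb panel shows kidney far above gastrocnemius from group 2 to 9, the Hoxc panel shows gastrocnemius above kidney at groups 10 and 11, and group 13 is at 0 in kidney in every panel.

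Epithelial junction and keratin genes were higher in 17 of 17 tested and enriched in 14. Cdh16, the kidney-specific cadherin, had 256, 236 and 252 FPKM in kidney, 0, 0 and 0.0375 in brain, and 0, 0.0162 and 0.128 in gastrocnemius. Cldn2, the leaky claudin of the proximal tubule, averaged 128 ± 14.7 FPKM in kidney, 0.874 ± 0.348 in brain and 0.0595 ± 0.0821 in gastrocnemius. Epcam, an epithelial adhesion molecule, averaged 45.6 ± 2.22 FPKM in kidney.

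Many enzymes come in tissue isoforms, and the levels of 44 such genes were followed in kidney. Of these, 19 were higher, 17 lower and 8 not called, 6 enriched and 7 missing. Without brain library 2, only 3 of the 7 were kidney-missing. Over all genes tested, 32.5% were higher, 31.1% lower, 6.67% enriched and 3.19% missing. The median log2 fold change of the list was −0.123, near the −0.0502 of all genes tested, so the tally itself shows no lean of the list to either side. For entry of fatty acids into mitochondria, Cpt1a averaged 134 ± 39.3 FPKM in kidney, Cpt1b 10.02 ± 0.691 and Cpt1c 0.499 ± 0.0696. Cpt1b reached 64.8 in gastrocnemius and Cpt1c 30.8 in brain. Lactate dehydrogenase was split less sharply. Ldhb, the subunit of aerobic tissues, had 522, 589 and 469 FPKM in kidney, 229, 169 and 208 in brain, and 131, 111 and 95.3 in gastrocnemius, and every kidney library lay above every other. Ldha, the subunit of fast muscle, had 93.8, 75.6 and 111 FPKM in kidney, 41.6, 46.9 and 48.4 in brain, and 190.2, 185 and 356 in gastrocnemius, so that kidney lay between the others and Ldha was not called against their mean.

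**Figure D4:**
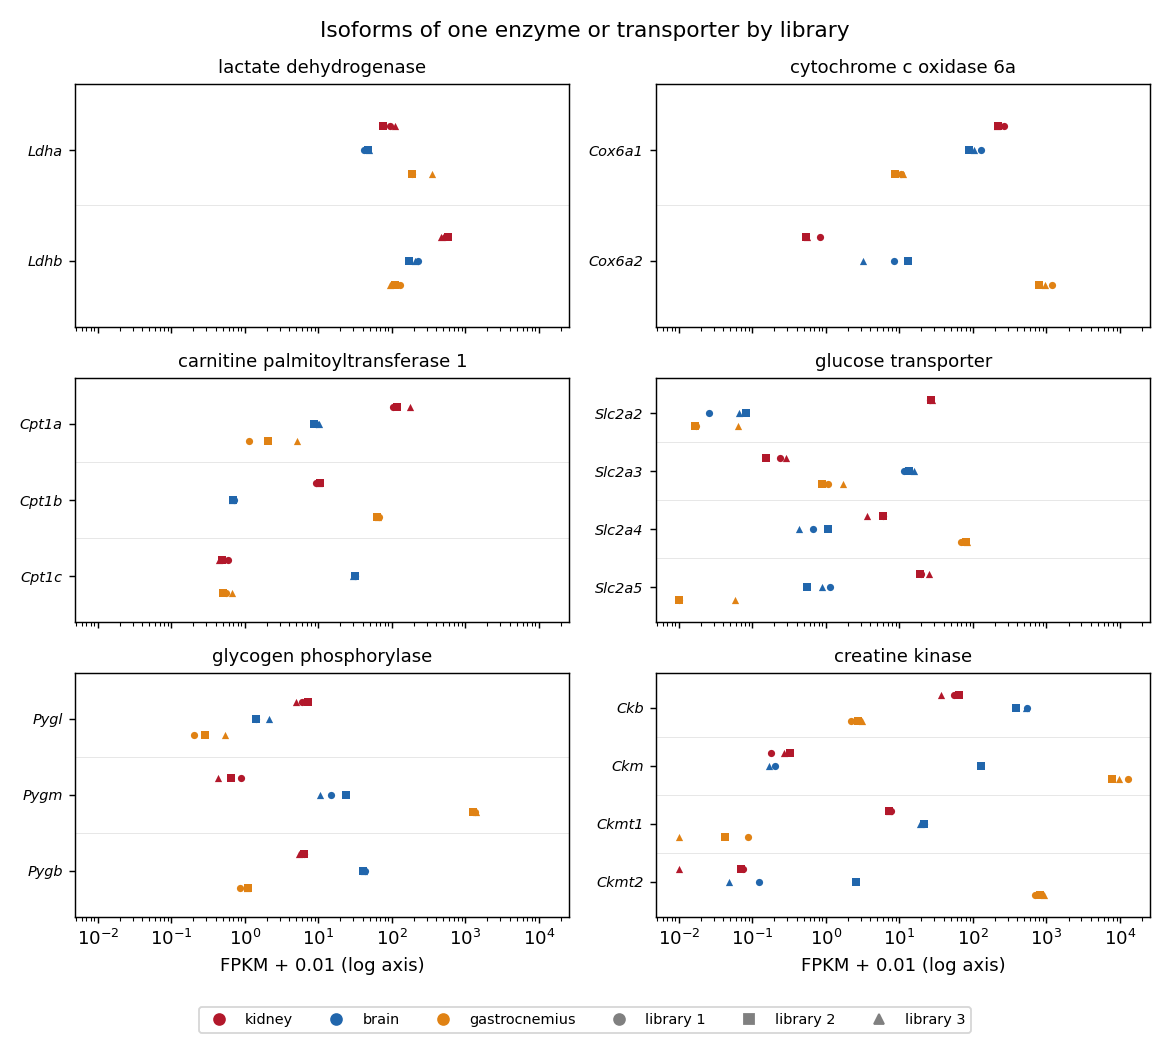
FPKM plus 0.01 (log axis) of the isoforms of 6 enzymes or transporters in each library, with kidney (red) above brain (blue) and gastrocnemius (orange). Kidney is highest for Ldhb, Cox6a1, Cpt1a, Slc2a2, Slc2a5 and Pygl, and for Ckm brain library 2 lies far from brain libraries 1 and 3.

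Glucose transporters followed suit. Slc2a2, the basolateral exit path for glucose, had 26.2, 27.3 and 28.1 FPKM in kidney, 0.0156, 0.0721 and 0.0552 in brain, and 0.00727, 0.00684 and 0.0541 in gastrocnemius, and Slc2a5, the fructose carrier, averaged 21.5 ± 3.34 FPKM in kidney. Slc2a3, the neuronal glucose carrier, was kidney-missing at 0.225, 0.145 and 0.277 FPKM in kidney, 11.6, 13.5 and 15.9 in brain and 1.05, 0.874 and 1.68 in gastrocnemius. Slc2a4, the insulin-responsive carrier, lay between the others, with 5.24 FPKM in kidney, 0.713 in brain and 78.4 in gastrocnemius. Pklr, the liver type pyruvate kinase, averaged 6.55 ± 1.6 FPKM in kidney and under 0.04 elsewhere, yet Pkm was the more abundant form in kidney at 131 ± 22.9 FPKM. Of the creatine kinases, kidney expressed Ckb at 52.04 ± 13.8 FPKM and Ckm at 0.249 ± 0.0771. Glycogen phosphorylase was at 6.04 FPKM for the liver form Pygl, 6.07 for the brain form Pygb and 0.643 for the muscle form Pygm in kidney. In respiratory complex IV, Cox6a1 averaged 232 FPKM in kidney, 107 in brain and 10.2 in gastrocnemius. Its contractile muscle counterpart Cox6a2 had 0.637 in kidney, 8.25 in brain and 983 in gastrocnemius.

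Selenium handling, the subject of the wider study, gave 8 of 10 genes higher, 1 lower and 1 not called in the control kidney. Beside Gpx3, Dio1, the deiodinase that activates thyroid hormone, was enriched, with 4.58, 5.18 and 4.73 FPKM in kidney, 0, 0 and 0.0378 in brain, and 0, 0 and 0.0216 in gastrocnemius. Selenop, the selenium carrier of plasma, had 257, 254 and 333 FPKM in kidney, 72.5, 64.3 and 70.97 in brain and 14.99, 21.5 and 22.9 in gastrocnemius, a log2 fold change of 2.53 ± 0.22 against brain (adjusted p = 3.2e-06) and 3.26 ± 0.22 against gastrocnemius (adjusted p = 1.0e-06). Its renal uptake receptor is megalin, Lrp2, which was enriched. Lrp8, the receptor that brain uses, had 0.172 FPKM in kidney and 3.52 in brain and was not called against the mean of the tissues. Selenow, a small redox selenoprotein of muscle, was the member that was lower. It had 36.8, 28.2 and 25.6 FPKM in kidney, 341, 316 and 343 in brain, and 644, 442 and 463 in gastrocnemius, with every kidney library below every other (log2 fold change −2.97 ± 0.24 against brain, adjusted p = 2.4e-06, and −4.71 ± 0.26 against gastrocnemius, adjusted p = 2.9e-07).

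The kidney-missing class holds, by its rule, genes that brain and muscle share. Among its leading genes was Eef1a2, the elongation factor isoform of neurons and muscle fibres. It had 0.792, 0 and 0.0255 FPKM in kidney, 418, 402 and 373 in brain, and 866, 768 and 610.5 in gastrocnemius, and its log2 fold change was −9.99 ± 1.09 against brain (adjusted p = 1.9e-05) and −12.01 ± 1.16 against gastrocnemius (adjusted p = 1.1e-05). Kidney library 1 was the highest of the kidney libraries for Eef1a2 and also for the neuronal list, with sums of 8.04, 2.76 and 2.6 FPKM in libraries 1, 2 and 3, and the part of that in the result was not tested. Kcnc4 and Kcnc1, fast potassium channels, were both kidney-missing: Kcnc1 had 0.0212, 0.0162 and 0.0239 FPKM in kidney, 21.6, 16.8 and 18.1 in brain, and 5.11, 6.58 and 6.61 in gastrocnemius, a log2 fold change of −9.32 ± 0.23 and −8.78 ± 0.23. Adcy2, an adenylyl cyclase, had 0.0224, 0.0107 and 0.0756 FPKM in kidney, 28.2, 31.3 and 30.7 in brain, and 20.9, 17.5 and 11.7 in gastrocnemius. Rbfox1, a splicing factor of neurons and muscle, had 0.166, 0.158 and 0.497 FPKM in kidney, 76.9, 77.3 and 66.9 in brain, and 65.5, 62.9 and 75.9 in gastrocnemius. Cap2, an actin regulator, Neurl1a, a ubiquitin ligase, St8sia5, a sialyltransferase, Camk2a, the calcium-dependent kinase of synapses, and Fgf13, a sodium channel partner, were others among these leading genes that were kidney-missing with and without brain library 2.

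The remaining 4 of the 15 leading genes, Myl1, Tnnc2, Tnnt3 and Ckm, are contractile or energy genes of muscle fibres, and their place rested on brain library 2. Ckm had 0.167, 0.319 and 0.263 FPKM in kidney, 0.196, 128 and 0.159 in brain, and 12913, 7891 and 9788 in gastrocnemius. Kidney values were at the level of brain libraries 1 and 3, and without brain library 2 the difference from brain was 1.00 on the log2 scale (adjusted p = 0.18), against −6.93 ± 2.23 with it. All 15 sarcomere genes were kidney-missing with that library and 4 of 15 without it: Myh2, Neb, Ryr1 and Casq1. Over all genes the class had 521 members without brain library 2, of which 498 were among the 550. Of 15 leading genes 11 stayed.

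Voltage-gated sodium and calcium channels, which carry action potentials and trigger release or contraction, were low in kidney. Of 23 voltage-gated sodium and calcium channel genes tested, 20 were lower, 1 higher and 2 not called, and 8 were kidney-missing (7 without brain library 2, with Cacna1s the difference). The median log2 fold change was −4.12. Scn4b, a sodium channel accessory subunit and the most abundant of the list in kidney, had 8.71, 9.34 and 7.42 FPKM in kidney, 71.4, 16.8 and 75.5 in brain, and 39.1, 28.97 and 71.5 in gastrocnemius. Every kidney library lay below every other, and the log2 fold change was −2.18 ± 0.50 against brain (adjusted p = 0.00297) and −3.03 ± 0.52 against gastrocnemius (adjusted p = 5.79e-04). Cacnb1, a calcium channel subunit of muscle and brain, had 0.697, 0.817 and 0.59 FPKM in kidney, 18.7, 20.5 and 19.99 in brain and 17.8, 9.33 and 15.04 in gastrocnemius. Cacna1d was the one higher against the mean, being low in gastrocnemius, with 1.01 FPKM in kidney, 8.27 in brain and 0.0391 in gastrocnemius, and turned lower against the mean by limma on log2(FPKM + 1) (−0.63). By name, 9 of 25 Cacn genes (36%) and 13 of 89 Kcn genes (14.6%) were kidney-missing, against 3.19% of all genes tested. Without brain library 2, 8 of those 9 Cacn genes stayed. Another 6 Kcn genes (6.74%) were kidney-enriched, near the 6.67% of all genes tested.

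Most genes of the neuronal, astrocyte and myelin lists were lower in kidney without being kidney-missing. The exceptions, 1 in each list with and without brain library 2, were Camk2a, the astrocyte calcium-binding protein gene S100b and the myelin glycoprotein gene Mag. Of 14 neuronal genes 13 were lower and 1 not called, with a median log2 fold change of −8.93 against brain and 1.38 against gastrocnemius. Snap25, a synaptic vesicle fusion protein, had 0.531, 0.0551 and 0.0432 FPKM in kidney, 309.5, 333 and 248 in brain and 0.0211, 0.119 and 0.0849 in gastrocnemius. Of 6 myelin genes 5 were lower and 1 not called. Of 6 astrocyte markers 5 were lower and 1, Aldh1l1, went the other way. This folate enzyme, a standard astrocyte marker in brain, had 85.7, 105 and 92.9 FPKM in kidney, 10.01, 8.91 and 11.3 in brain, and 1.31, 2.52 and 1.58 in gastrocnemius, and was kidney-enriched with a log2 fold change of 3.73 ± 0.23 against brain (adjusted p = 3.5e-07) and 5.14 ± 0.25 against gastrocnemius (adjusted p = 1.4e-07).

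Transcripts of antibody genes, which plasma cells make, were higher in the old kidney than in brain or muscle. Igkc, the kappa light chain constant region, had 333, 1055 and 629 FPKM in kidney, 11.6, 13.96 and 9.09 in brain, and 10.1, 5.31 and 46.4 in gastrocnemius. Igha, the IgA heavy chain, had 27.4, 193 and 52.2 FPKM in kidney, 0.074, 0.247 and 0.206 in brain, and 0.345, 0.162 and 0.722 in gastrocnemius, and Jchain, which joins IgA into dimers, had 6.93, 38.1 and 14.8 FPKM in kidney, 0.411, 0.297 and 0.385 in brain, and 0.142, 0.08 and 0.818 in gastrocnemius. Library 2 was the highest and library 1 the lowest for all 3 genes, and the kidney range was wide, but no brain or gastrocnemius library reached the lowest kidney value. For Igha the log2 fold change was 9.46 ± 0.95 against brain (adjusted p = 1.1e-05) and 7.18 ± 0.85 against gastrocnemius (adjusted p = 4.6e-05). Variable segments gave 35 of 39 Igkv genes and 9 of 10 Ighv genes tested as kidney-enriched, against 6.67% of all genes tested. They lay in runs on chromosomes 6 and 12. A segment with counts in kidney alone passes the filter on low counts, so these shares are descriptions and add no separate support to the genes above. Reads of similar segments may be shared in counting, so values for single segments are uncertain. Ighm, the IgM heavy chain, did not follow: it had 21.5, 7.96 and 56.98 FPKM in kidney, 19.3, 13.4 and 10.8 in brain and 54.99, 35.5 and 153 in gastrocnemius, and was not called against their mean. Cd79a, of the B cell receptor, averaged 1.21 ± 0.481 FPKM in kidney. Macrophage genes gave 5 of 9 higher, 1 lower and 3 not called, and T and NK cell genes 4 of 6 higher and 2 not called. Of all genes tested, 32.5% were higher.

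Other cell types that a whole kidney may carry were checked by list. Over all genes tested, 32.5% were higher and 31.1% lower. Endothelial genes gave 3 of 8 higher, 3 lower and 2 not called, near those shares. Plvap, the fenestral diaphragm protein, led the endothelial list at 36.1 FPKM in kidney, 3.23 in brain and 4.06 in gastrocnemius. Fibroblast genes gave 0 of 6 higher and 2 lower. Smooth muscle (4 genes), red cell (5) and adrenal (2) lists had no gene called in either direction. Urothelial genes were higher in 3 of 3 tested, with 3.41 to 16.6 FPKM summed in kidney, 1.21 to 2.25 in brain and 0.447 to 0.718 in gastrocnemius. Hepatocyte genes gave 3 of 7 higher: Fga and Serpina1a were enriched, and Alb, the albumin gene that defines hepatocytes, had 7.57 FPKM in kidney, 4.31 in brain and 2.37 in gastrocnemius on average and was not called. The hepatocyte list summed to 1.75, 1.24 and 20.3 FPKM in brain libraries 1, 2 and 3, so the brain mean of Alb rested mostly on library 3. Pancreatic acinar genes gave 0 higher and 1 lower of 1 tested, and adipocyte genes 1 higher of 5.

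Tubular injury genes, of interest in an old organ, were higher in 7 of 8 tested and 3 were enriched, but these data hold no young kidney against which to read their level. Havcr1, the kidney injury molecule, had 1.13, 1.72 and 1.34 FPKM in kidney and no count elsewhere, which made it at least 40.8-fold higher than in brain. Spp1, osteopontin, which distal tubule makes in health too, had 207, 217 and 259.7 FPKM in kidney, 4.41, 4.21 and 4.64 in brain, and 0.482, 1.11 and 0.744 in gastrocnemius. Krt20 had 0.367, 1.24 and 4.93 FPKM in kidney libraries 1, 2 and 3, a spread wider than that of Havcr1 or Spp1. Lcn2, the lipocalin NGAL, averaged 2.03 ± 1.06 FPKM in kidney and was not called.

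The 3 kidney libraries lay close together in several lists of tubular genes and farthest apart in lists of red cells, adipocytes and urothelium. Relative to their mean, the average log2 CPM of the 20 amino acid genes spanned 0.0757 between libraries, that of 18 androgen and xenobiotic genes 0.14 and that of 12 intercalated cell genes 0.122. Other tubular lists spanned more, with 0.458 for 12 thick ascending limb genes and 0.398 for 10 principal cell genes. A narrow span was not particular to tubular lists, being 0.118 for 15 sarcomere genes. The average spanned 3.39 for 5 red cell genes, 2.12 for 5 adipocyte genes and 1.71 for 3 urothelial genes. Kidney library 2 had the lowest red cell and adipocyte transcript sums. Red cell sums were 95.8, 7.61 and 59.8 FPKM and adipocyte sums 9.12, 0.194 and 5.02 FPKM in libraries 1, 2 and 3. Kidney library 3 had the highest sum of urothelial transcripts, with 6.14, 3.41 and 16.6 FPKM, and the most Cxcl1, a neutrophil chemokine, at 0.585, 0.959 and 9.53 FPKM. Tubular injury sums were 261, 296 and 355 FPKM, highest in the same library. Krt20 belongs to both the injury and the urothelial list, so the 2 sums are not separate observations. Among genes with at least 5 CPM in kidney, the widest spread of log2 CPM was in Gm20716, Gm20708, Zbtb20, Spry1, Gpr146, Fam102b, Sp1, Ugt1a5, Cxcl1 and Neurl1b. Zbtb20 had 0.19, 0.173 and 4.65 FPKM in kidney, 3.13, 0.0884 and 0.0519 in brain, and 2.01, 0.128 and 0.113 in gastrocnemius, so that in each tissue 1 library was over 10 times the others. Sp1 had 4.25, 0.293 and 3.94 FPKM in kidney, 0.356, 2.99 and 3.09 in brain, and 1.26, 0.186 and 2.74 in gastrocnemius, and 1 library of each tissue lay far below its highest.

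**Figure D5:**
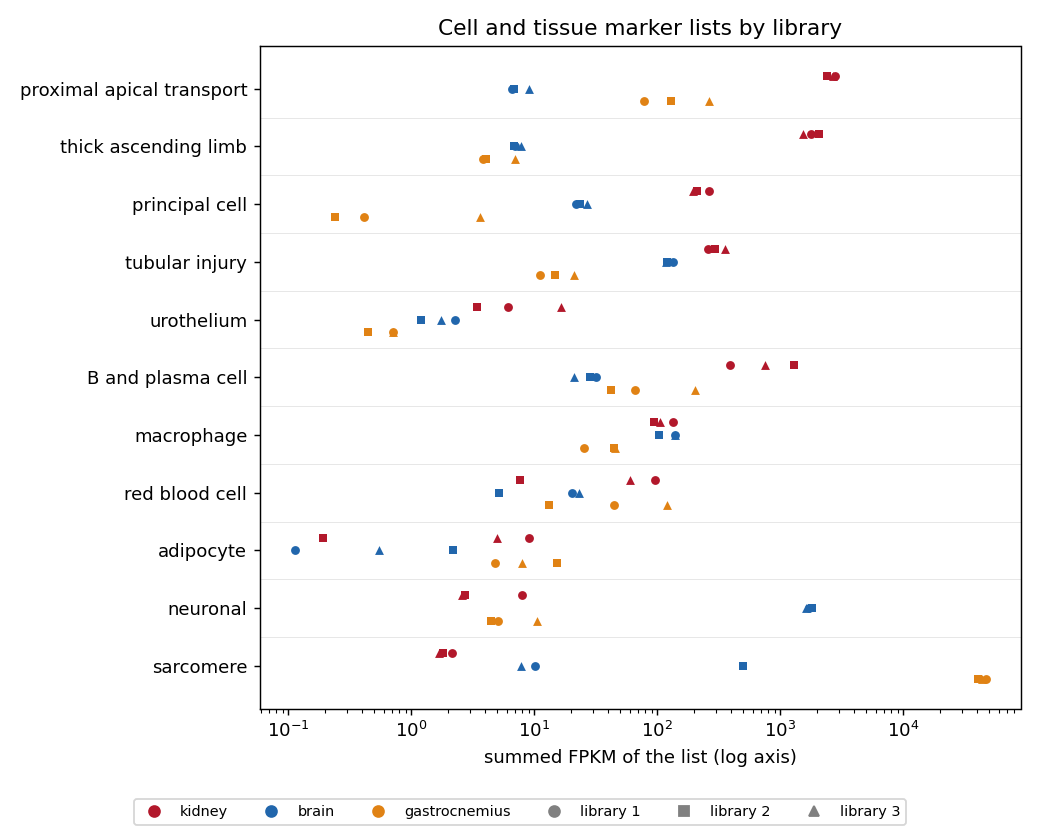
Summed FPKM (log axis) of 11 marker lists in each library, with kidney (red) above brain (blue) and gastrocnemius (orange). Kidney libraries lie closer together for the tubular, macrophage and sarcomere lists than for the urothelium, red cell and adipocyte lists. Brain library 2 (square) lies apart from brain libraries 1 and 3 in the sarcomere list.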

How the data were processed

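Per the labels, each library was made from polyadenylated RNA. The authors deposited raw gene-level read counts (whole numbers) in a single table, with FPKM values beside them that equal those counts scaled by gene length and by each library's total. The submitters' processing notes name the GRCm38 build. Which aligner, counter, annotation and strand setting were used is not given in the sources here. Of 34745 rows, 34267 had an identifier in GENCODE M21, which supplied symbols and positions, including for 27 symbols that had become dates.

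Counts of the 9 control libraries were fitted together in R 4.3.3 with edgeR 4.0.16. Genes were kept by filterByExpr (count minimum 10, total minimum 15), scaled by TMM, and tested with glmQLFit and glmQLFTest for kidney minus the mean of brain and gastrocnemius and for kidney minus each. P-values were adjusted by the Benjamini-Hochberg method over all 17252 genes tested, with a threshold of 0.05. A gene expressed in 1 tissue alone passes this filter, so counts over the genes that passed are descriptions. The enriched and missing classes need a log2 fold change of at least 3 in size against each tissue. Standard errors are the log2 fold change over the square root of F, and SDs are over 3 libraries. Where a tissue had no count, the fold is a bound from 3 counts per library (0.117 CPM in brain, 0.22 in gastrocnemius); where it had 1 to 3, intervals cover counting error only. The fit was tested on simulated data.

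Genes were named by rule: from each list up to 4 with the highest kidney FPKM and up to 4 not called or called the other way; all isoform, transcription factor, Hox and selenium genes as needed; the 15 leading enriched (at least 5 FPKM in kidney) and missing genes, without predicted names; the 10 highest in kidney FPKM outside the mitochondrial genome; and the 10 with the widest spread among kidney libraries. Genes in promoter windows, Epcam, Fga, Serpina1a and some further list members were added after their values were seen. The gene lists and the classes were chosen with earlier results of these data known. Some genes that the rule names are not reported here. Promoter windows came from RefSeq. Replicate numbers are the submitters' and were not treated as pairs. Alternatives were other scalings, filters and fold thresholds, DESeq2 1.42.0, limma 3.58.1 on log2 FPKM with a pseudocount, a replicate-number block, and the omission of each library in turn.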

Additional observations from a re-analysis of the deposited data

How the results depend on the processing

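The numbers of genes higher and lower in kidney stayed within 1.5 times their main value under every alternative run, as did the enriched class except by limma on log2(FPKM + 1), which called 493. The kidney-missing class had 44 genes by limma on log2(FPKM + 1), 180 by limma on log2(FPKM + 0.1), 876 at a 4-fold threshold and 362 at a 16-fold threshold. A pseudocount shrinks the fold of low genes by construction. The limma runs also differed from the main fit in their filter, which kept 13975 genes, in having no TMM scaling, and in the test. The part of each in the smaller classes was not tested. Leaving out each library in turn gave 5164 to 5967 genes higher, 4691 to 5344 lower, 1182 to 1270 enriched and 505 to 574 missing. With the replicate number as a block, 5526 were higher, 5219 lower, 1167 enriched and 515 missing. Deviations of same-numbered libraries of different tissues correlated between 0.0114 and 0.105 over 9 pairs, 2 of them over 0.1, and every library correlated best with its own number. Of 180 genes named above and tested, 164 kept their side of the threshold against the mean of the other tissues under every alternative that gave an adjusted p; Hoxc10, Hoxa11, Gm20708 and Ckb lost it most often. Cacna1d turned to −0.63 on the log2 scale by limma on log2(FPKM + 1), and Gm20708 ranged from −0.606 (without kidney library 3, adjusted p = 0.6) to 4.14 (without brain library 1) as libraries were left out. Depth limits genes listed at 0 in brain or gastrocnemius to bounds.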
